A study of Narcissus tazetta subsp. chinensis with 8 samples.

Results

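Transcript levels in corolla and in petal of the Chinese narcissus, Narcissus tazetta var. chinensis cv Jinzhanyintai, were compared at full bloom. The comparison rests on 4 of the 8 libraries of a study of floral scent: 2 of corolla and 2 of petal, each collected on day 7. A further 4 libraries, 2 of corolla and 2 of petal collected on day 1 at early flowering, served as a second and separate set of the same tissues. All plants were of 1 cultivar grown outdoors in a plantation, with no treatment. Per the labels the 2 libraries of a group are biological repeats. Neither the number of flowers in a repeat nor the way the tissues were cut is given, so p-values measure the spread between these repeats only. Poly-A RNA was sequenced and assembled de novo. Genes therefore carry assembly identifiers and have no coordinates, and none of their sequences were used here.

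Narcissus tazetta carries a ring of flat outer segments around a short cup, and in Jinzhanyintai the cup is yellow and the outer segments are white. The labels call the sampled tissues corolla and petal and do not say which of these parts each word covers. Yellow colour in narcissus flowers comes from carotenoids, which are made in plastids from phytoene and can be cut by carotenoid cleavage dioxygenases. Floral scent in many species comes from benzenoids, derived from phenylalanine, and from terpenoids. A cuticle of cutin and wax, built from elongated fatty acids, covers the outer surface of every flower organ.

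The deposited tables list 64490 genes for corolla and 67182 for petal, and 50576 genes are in both. Of these, 23185 reached 1 FPKM in 2 or more of the day 7 libraries and were tested. FPKM counts the sequenced fragments of a gene for its transcript length and for the depth of its library. Differences are corolla minus petal on the log2(FPKM + 1) scale, which understates those of weakly expressed genes, and a positive value means higher in corolla. A gene is called where the limma adjusted p is below 0.05. Only genes that the authors had called between the days, in either tissue, carry a name: 1917 genes have one, of which 1728 were tested. The day 7 libraries took part in that choice, so the lists of named genes below are not independent evidence of direction.

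Corolla and petal differed in 1176 genes at full bloom (5.07% of those tested), 509 higher in corolla (2.20%) and 667 higher in petal (2.88%). Differences of at least 16-fold on the FPKM + 1 scale were found in 9 genes higher in corolla and 29 higher in petal. Among the named genes 357 were called (20.7%), 166 of them higher in corolla (9.61%) and 191 higher in petal (11.1%), and these shares are the background for the lists that follow. The median difference was -0.08 over all tested genes and -0.05 over the named ones. With TMM scaling of the libraries the split turned round, to 756 genes higher in corolla and 626 higher in petal. These counts moved with the libraries: without petal repeat 2 the limma fit called 0 genes (4383 at an unadjusted p under 0.05), without petal repeat 1 it called 37, without corolla repeat 2 137 and without corolla repeat 1 365. Each of these fits leaves 1 library for a tissue, which is assumed to vary like the pair of the other tissue. No day 7 call given below stands without petal repeat 2. Where a day 7 call ended, or the count of a list moved by over 1.5 times, under another setting that kept all 4 libraries (pseudocount, filter, scaling, prior, gene set or a fit over all 8 libraries), the range over 9 such settings is given beside it. The total of 1176 genes ran from 625 to 2962 over the 9 settings. A fit with the repeat number as a block is not among the 9 and is given in the closing section.

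The 4 libraries had 21663 to 23962 of the shared genes at 1 FPKM or more, and repeats of a tissue correlated at r = 0.957 in corolla and 0.953 in petal across genes, against 0.884 to 0.923 between tissues. Repeat 2 was the shallower library in both tissues. Relative to the first corolla library of day 1, depth was 0.997 and 0.737 in corolla and 1.02 and 0.678 in petal. Depth was read from each gene's ratio of counts to FPKM, divided by its own ratio in that day 1 library. This relative ratio varied little among the 248 genes used (quartiles 0.668 to 0.684 in petal repeat 2, the shallowest), so both tables share a length basis, and levels are set side by side across them. An unnamed gene among the most abundant, c93840.graph_c0, had 5779.5 and 21428 FPKM in corolla, against 18456 and 6006 FPKM in petal, and so split the repeats of each tissue rather than the tissues. In tissue samples such as these, fewer cells of a type and less RNA per cell cannot be told apart.

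**Figure D1:**
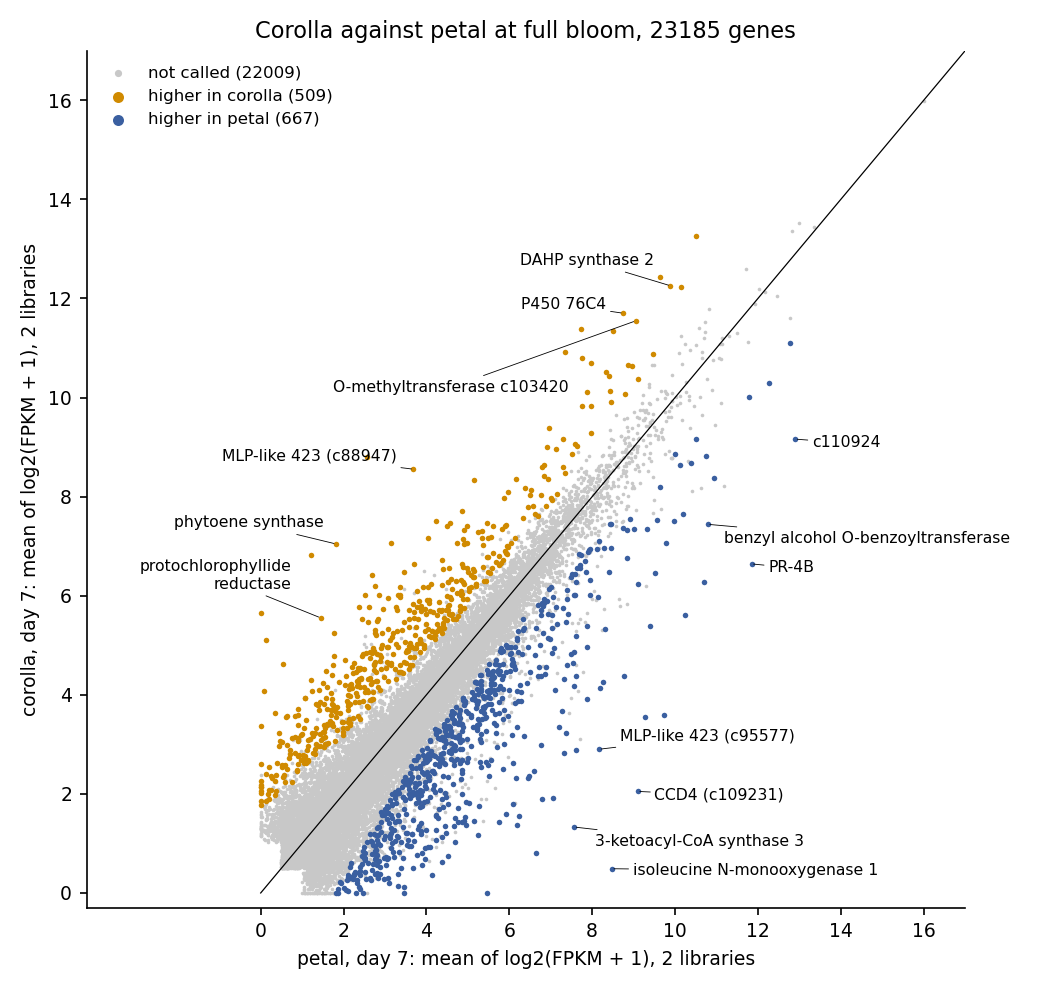
Mean log2(FPKM + 1) of the 2 corolla libraries (vertical axis) against that of the 2 petal libraries (horizontal axis) on day 7, 1 point a gene; the line marks equal levels. The 509 genes called higher in corolla lie above the line and the 667 called higher in petal below it, with the isoleucine N-monooxygenase and a carotenoid cleavage dioxygenase 4 (CCD4) farthest to the petal side among the labelled genes.

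Carotenoid genes stood on both sides. A phytoene synthase, a lycopene cyclase and related genes were higher in corolla, and a pair of cleavage dioxygenase genes was higher in petal. Of 13 tested genes of the list 4 were higher in corolla and 2 in petal, with a list median of 0.08. Phytoene synthase (c101402.graph_c0), which catalyses the committed first step, had 136 and 126 FPKM in corolla, against 3.12 and 2.01 FPKM in petal. Both corolla libraries stood far above both petal libraries (log2 difference 5.23 ± 0.22 SE, limma adjusted p = 0.000385). Lycopene epsilon cyclase (c109754.graph_c4), which leads lycopene towards lutein, had 21.3 and 21.4 FPKM in corolla, against 2.32 and 1.71 FPKM in petal (log2 difference 2.90 ± 0.23 SE, limma adjusted p = 0.00298). A gene matched to the capsanthin/capsorubin synthase of pepper (c102481.graph_c0), a relative of lycopene cyclases, had 69.1 and 58.6 FPKM in corolla, against 8.13 and 10.6 FPKM in petal (log2 difference 2.65 ± 0.20 SE, limma adjusted p = 0.00287). Beta-carotene isomerase D27 (c103044.graph_c0), known from strigolactone synthesis in rice, had 27.6 and 19.5 FPKM in corolla, against 2.14 and 2.52 FPKM in petal (log2 difference 2.86 ± 0.25 SE, limma adjusted p = 0.00426). In these 4 genes the repeats of a tissue lay close together and the tissues did not overlap.

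Carotenoid cleavage dioxygenase 4 is known from white chrysanthemum petals, where it degrades carotenoids. One gene matched to it (c109231.graph_c0) had 2.81 and 3.50 FPKM in corolla, against 469 and 639.7 FPKM in petal (log2 difference -7.05 ± 0.21 SE, limma adjusted p = 0.000181), the second largest difference towards petal among the named genes. A further match (c104683.graph_c0) had 58.1 and 65.2 FPKM in corolla, against 246 and 321 FPKM in petal (log2 difference -2.17 ± 0.20 SE, limma adjusted p = 0.00479), so this gene was present in corolla at a level that the first was not. Further genes of the list were not called with limma, another D27 gene among them. A second phytoene synthase gene (c96068.graph_c0) had 2.96 and 2.44 FPKM in corolla, against 2.44 and 1.49 FPKM in petal (adjusted p = 0.629 with limma). Zeta-carotene isomerase (c91437.graph_c0), which acts between phytoene and lycopene, had 91.4 and 81.4 FPKM in corolla, against 81.8 and 91.1 FPKM in petal, with overlapping groups (limma adjusted p = 0.998). Zeaxanthin epoxidase (c104304.graph_c0), which acts after the cyclases, had 74.3 and 74.7 FPKM in corolla, against 98.8 and 139 FPKM in petal (log2 difference -0.65 ± 0.21 SE, limma adjusted p = 0.152). Tested with edgeR on its counts, its adjusted p was 0.019.

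**Figure D2:**
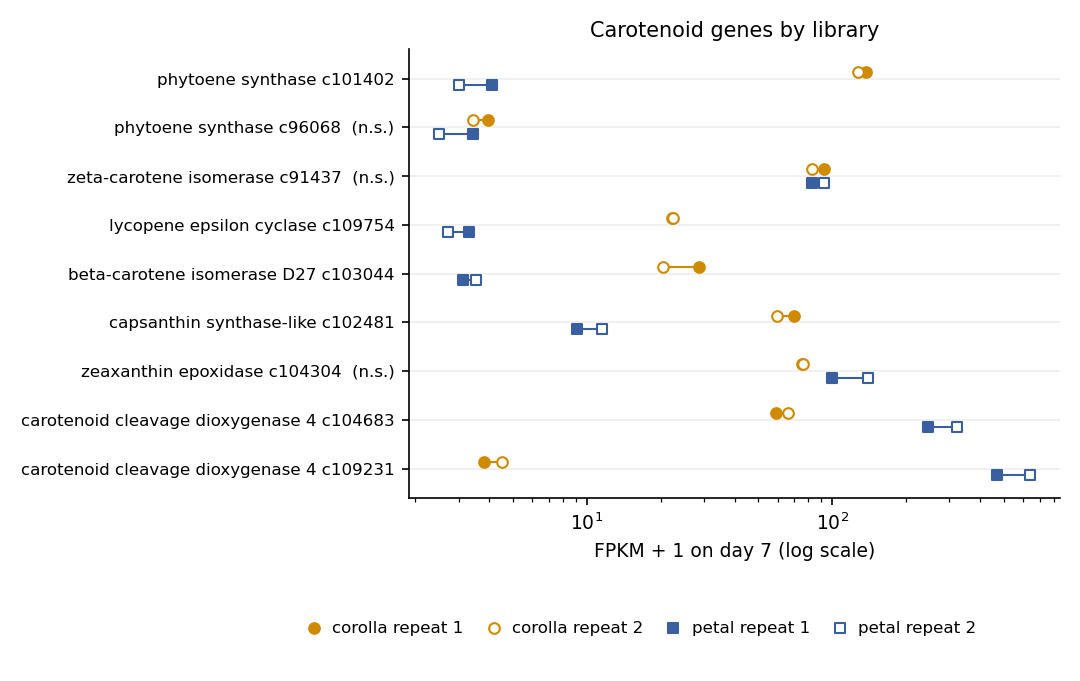
FPKM + 1 on a logarithmic axis for 9 carotenoid genes in each day 7 library; corolla repeats are circles and petal repeats squares, filled for repeat 1 and open for repeat 2, and n.s. marks genes not called. Phytoene synthase c101402 lies at 126 to 136 FPKM in corolla and 2.01 to 3.12 FPKM in petal, and the cleavage dioxygenase c109231 at 2.81 to 3.50 FPKM in corolla and 469 to 640 FPKM in petal.

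Genes of benzenoid scent differed gene by gene rather than as a group. Benzyl alcohol O-benzoyltransferase (c95879.graph_c2), which makes benzyl benzoate, was higher in petal, with 183 and 163 FPKM in corolla, against 1598 and 1961 FPKM in petal (log2 difference -3.35 ± 0.22 SE, limma adjusted p = 0.00149). Of the phenylpropanoid entry and benzenoid enzymes, 3 of 10 tested genes were higher in corolla and 2 in petal, with a median of 0.75 (2 to 5 and 2 over the 9 settings). The phenylalanine ammonia-lyase genes, whose enzymes turn phenylalanine into cinnamate, were unlike each other. c103612.graph_c0 had 12.7 and 12.6 FPKM in corolla, against 34.8 and 50.4 FPKM in petal (log2 difference -1.65 ± 0.22 SE, limma adjusted p = 0.0146). c93919.graph_c0 was on the other side, with 20.02 and 15.99 FPKM in corolla, against 1.55 and 2.14 FPKM in petal (log2 difference 2.74 ± 0.25 SE, limma adjusted p = 0.0047). The third gene, c78531.graph_c0, had 13.3 and 14.6 FPKM in corolla, against 6.74 and 11.4 FPKM in petal and did not pass (limma adjusted p = 0.278). The phenylalanine ammonia-lyase gene with the highest level was thus another in each tissue.

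A 4-coumarate-CoA ligase-like gene (c106335.graph_c1), of a family that activates cinnamic and related acids, had 237 and 287 FPKM in corolla, against 88.04 and 133 FPKM in petal (log2 difference 1.26 ± 0.25 SE, limma adjusted p = 0.0416; 0.00861 to 0.0958 over 9 other settings that kept all 4 libraries). A gene matched to a benzoyltransferase of taxol synthesis in yew (c95748.graph_c0), of the same acyltransferase family as the benzyl benzoate enzyme, had 10.6 and 19.5 FPKM in corolla, against 0.82 and 1.43 FPKM in petal (log2 difference 2.87 ± 0.35 SE, limma adjusted p = 0.011). Upstream, in the shikimate and phenylalanine list, 1 of 8 tested genes was higher in corolla and 1 in petal (median 0.38; 1 to 3 and 1 to 2 over the 9 settings). DAHP synthase 2 (c99662.graph_c0), the entry enzyme of the shikimate pathway, was among the most abundant named genes of corolla, with 4445 and 5379 FPKM in corolla, against 735 and 1221 FPKM in petal (log2 difference 2.37 ± 0.35 SE, limma adjusted p = 0.0185). Arogenate dehydratase 6 (c98687.graph_c0), which takes part in phenylalanine synthesis, had 0.52 and 0.76 FPKM in corolla, against 5.91 and 7.86 FPKM in petal (log2 difference -2.26 ± 0.30 SE, limma adjusted p = 0.0136). Its relative arogenate dehydratase 1 (c106196.graph_c0), far more abundant, had 344 and 358 FPKM in corolla, against 209 and 250.1 FPKM in petal, with groups that did not overlap and no call (limma adjusted p = 0.135; 0.0193 to 0.284 over the same 9 settings).

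Terpenoid precursor and terpene synthase genes gave 0 calls among 6 tested with limma, with 3 at an unadjusted p under 0.05, up to 2 calls higher in corolla and 1 in petal over the 9 settings, and 1 call among the 1 member that edgeR could test on counts. The 1-deoxy-D-xylulose-5-phosphate synthase genes, whose enzyme feeds the plastid pathway, had the following levels. c106934.graph_c1 had 713 and 815 FPKM in corolla, against 353 and 534 FPKM in petal (limma adjusted p = 0.153; 0.0464 to 0.317 over the 9 settings). c107914.graph_c0 had 40.6 and 43.4 FPKM in corolla, against 40.3 and 37.7 FPKM in petal, a log2 difference of 0.10 ± 0.16 SE, and c54414.graph_c0 had 30.4 and 21.4 FPKM in corolla, against 19.8 and 25.5 FPKM in petal, with overlapping groups. The 1 named terpene synthase (c101367.graph_c0) was weak, with 3.41 and 4.11 FPKM in corolla, against 6.86 and 10.5 FPKM in petal (limma adjusted p = 0.108; 0.035 to 0.225 over the 9 settings).

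Among O-methyltransferases and methionine cycle genes 2 of 19 tested were higher in corolla and 0 in petal, with a median of 0.52 (2 to 5 and 0 over the 9 settings). Both calls were matched to the trans-resveratrol di-O-methyltransferase of grape, which methylates a stilbene. c103420.graph_c0 had 2833 and 3158 FPKM in corolla, against 420.1 and 664 FPKM in petal (log2 difference 2.50 ± 0.30 SE, limma adjusted p = 0.0105). c98326.graph_c0 had 176 and 177 FPKM in corolla, against 20.2 and 25.6 FPKM in petal (log2 difference 2.90 ± 0.18 SE, limma adjusted p = 0.0014). Another gene with the same match, c54333.graph_c0, was as abundant in corolla and less different, with 3139.6 and 3941 FPKM in corolla, against 1485 and 2221 FPKM in petal and no call (limma adjusted p = 0.182). A further such gene, c48302.graph_c0, ran the other way, with 139.6 and 118 FPKM in corolla, against 196 and 213 FPKM in petal, and did not pass either (limma adjusted p = 0.0991).

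Cytochrome P450 enzymes insert oxygen into small molecules. One matched to CYP76C4 (c105417.graph_c1), of an Arabidopsis group that oxidises monoterpene alcohols, had 3161 and 3512 FPKM in corolla, against 318 and 576 FPKM in petal (log2 difference 2.96 ± 0.34 SE, limma adjusted p = 0.00905). The largest difference among all named genes was that of isoleucine N-monooxygenase 1 (c95271.graph_c2), which in Lotus starts the synthesis of cyanogenic glucosides from amino acids. It had 0.46 and 0.35 FPKM in corolla, against 269.9 and 466 FPKM in petal (log2 difference -7.99 ± 0.28 SE, limma adjusted p = 0.000223), so both corolla libraries were below 1 FPKM. In the list of P450 enzymes and glycosyltransferases 1 of 30 tested genes was higher in corolla and 5 in petal (median -0.46; 1 to 2 and 3 to 11 over the 9 settings). A glycosyltransferase matched to UGT73C4 (c110237.graph_c0) had 4.03 and 1.24 FPKM in corolla, against 38.97 and 36.1 FPKM in petal (log2 difference -3.52 ± 0.38 SE, limma adjusted p = 0.00785).

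A flavin monooxygenase matched to YUCCA10 (c93439.graph_c0), of the family that makes auxin, had 4423 and 5279.7 FPKM in corolla, against 856 and 1474 FPKM in petal (log2 difference 2.10 ± 0.36 SE, limma adjusted p = 0.0284; 0.00231 to 0.0676 over the 9 settings). In the list of alkaloid-type enzymes 1 of 9 was higher in corolla and 2 in petal (1 to 3 and 1 to 3 over the 9 settings). S-norcoclaurine synthase (c106745.graph_c0), which in other plants starts benzylisoquinoline alkaloid synthesis, had 165 and 158 FPKM in corolla, against 55.5 and 54.9 FPKM in petal (log2 difference 1.53 ± 0.16 SE, limma adjusted p = 0.00682). A tropinone reductase homolog (c91830.graph_c0) had 1.15 and 1.69 FPKM in corolla, against 7.18 and 9.46 FPKM in petal (log2 difference -1.94 ± 0.28 SE, limma adjusted p = 0.018), and a gene matched to thebaine 6-O-demethylase of poppy (c103730.graph_c0) had 29.3 and 26.2 FPKM in corolla, against 56.4 and 74.6 FPKM in petal (log2 difference -1.20 ± 0.20 SE, limma adjusted p = 0.0267; 0.00758 to 0.0777 over the 9 settings).

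In the flavonoid list, 1 of 11 tested genes was higher in corolla and 1 in petal (1 and 0 to 3 over the 9 settings). An isoflavone reductase-like gene (c78614.graph_c0) had 27.1 and 40.8 FPKM in corolla, against 0 and 0.21 FPKM in petal (log2 difference 4.96 ± 0.29 SE, limma adjusted p = 0.00117) and so was at or near 0 in petal. Lignin branch genes gave 0 of 11 higher in corolla and 2 in petal (0 to 1 and 0 to 4). Dirigent protein 20 (c102073.graph_c0), of a family that steers the coupling of lignin precursors, had 12.7 and 6.38 FPKM in corolla, against 36.3 and 35.6 FPKM in petal (log2 difference -1.88 ± 0.31 SE, limma adjusted p = 0.0246; 0.00366 to 0.0655 over the 9 settings). A cinnamoyl-CoA reductase-like gene (c93905.graph_c0) had 29.6 and 37.5 FPKM in corolla, against 61.8 and 84.6 FPKM in petal, and its call ended under 6 of the 9 settings (limma adjusted p = 0.0476; 0.0118 to 0.109).

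**Figure D3:**
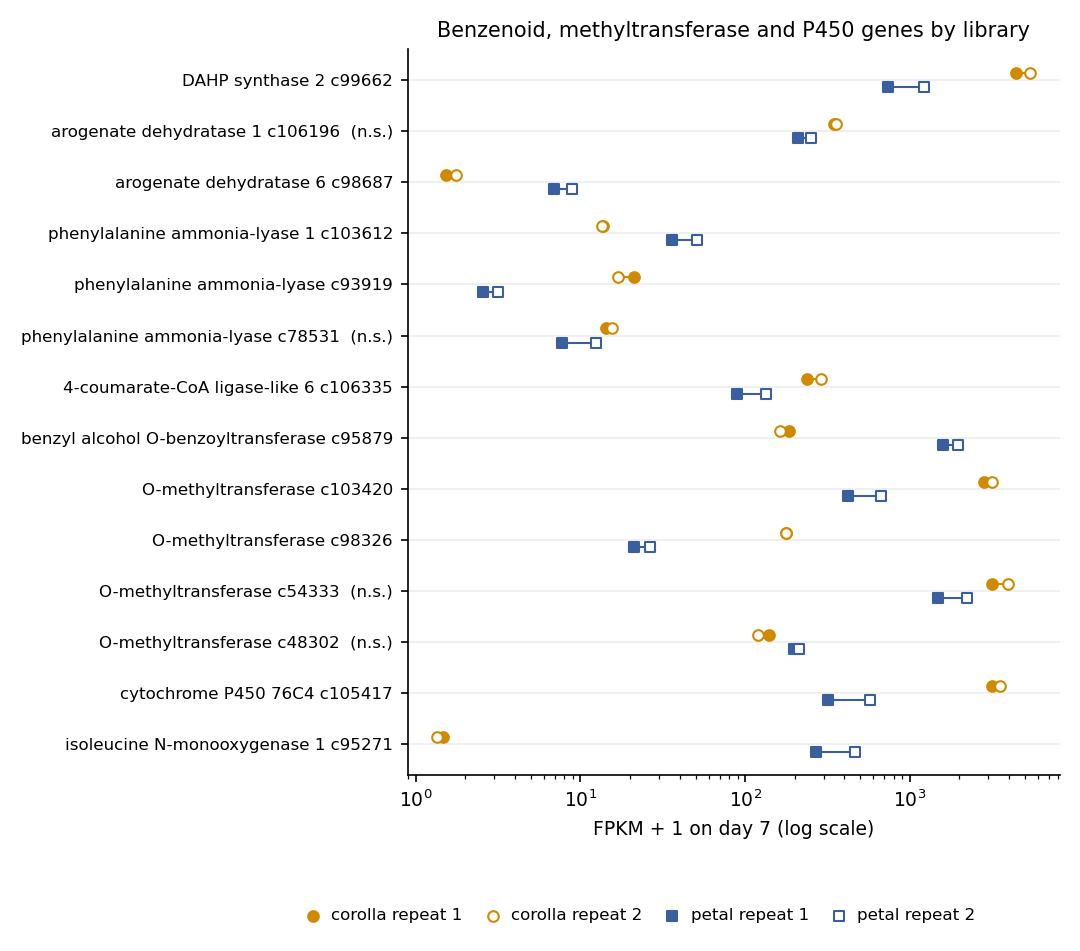
FPKM + 1 on a logarithmic axis for 14 genes of benzenoid, methyltransferase and P450 enzymes in each day 7 library; corolla repeats are circles and petal repeats squares, filled for repeat 1 and open for repeat 2, and n.s. marks genes not called. Benzyl alcohol O-benzoyltransferase lies at 163 to 183 FPKM in corolla and 1598 to 1961 FPKM in petal, while DAHP synthase 2 lies at 4445 to 5379 FPKM in corolla and 735 to 1221 FPKM in petal.

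Most called genes of wax and cutin synthesis were higher in petal. In the list of fatty acid, wax and lipid transfer genes 5 of 46 tested were higher in corolla and 13 in petal (3 to 15 and 10 to 13 over the 9 settings), although the list median was 0.08 and 25 of the 46 differences were above 0. The petal side was made up largely of 3-ketoacyl-CoA synthases, which elongate very long chain fatty acids, and of ECERIFERUM proteins, which turn them into alkanes. Of 12 such genes, a group set apart after its values had been seen, 0 were higher in corolla and 9 in petal, with a median of -3.31 (0 to 2 and 7 to 9 over the 9 settings). The summed level of the 12 was 319 and 296 FPKM in corolla and 1289 and 1403 FPKM in petal.

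3-ketoacyl-CoA synthase 3 (c106324.graph_c0) had 2.04 and 1.08 FPKM in corolla, against 180.1 and 199 FPKM in petal (log2 difference -6.24 ± 0.23 SE, limma adjusted p = 0.000269). ECERIFERUM 1 (c103187.graph_c0), the alkane-forming enzyme of Arabidopsis, had 2.80 and 2.76 FPKM in corolla, against 135 and 130.4 FPKM in petal (log2 difference -5.14 ± 0.17 SE, limma adjusted p = 0.000181). The repeats of each tissue were nearly equal in this gene. 3-ketoacyl-CoA synthase 10 (c96585.graph_c0) had 15.03 and 13.2 FPKM in corolla, against 217 and 254 FPKM in petal (log2 difference -3.97 ± 0.18 SE, limma adjusted p = 0.000433). 3-ketoacyl-CoA synthase 6 (c98211.graph_c0), the main wax elongase of Arabidopsis stems, had 4.22 and 3.78 FPKM in corolla, against 71.2 and 70.3 FPKM in petal (log2 difference -3.84 ± 0.18 SE, limma adjusted p = 0.000519), and a weaker gene of the same name (c78955.graph_c0) had 1.00 and 0.39 FPKM in corolla, against 20.5 and 23.4 FPKM in petal. 3-ketoacyl-CoA synthase 11 (c102727.graph_c0) had 23.3 and 16.99 FPKM in corolla, against 207 and 179 FPKM in petal (log2 difference -3.21 ± 0.21 SE, limma adjusted p = 0.00149). Members were not all alike, however. A second ECERIFERUM 1 gene (c102117.graph_c4) had 1.69 and 1.72 FPKM in corolla, against 31.8 and 24.4 FPKM in petal and was called (-3.41 ± 0.23 SE (adjusted p = 0.00182) with limma). Another (c100302.graph_c0) had 48.7 and 59.7 FPKM in corolla, against 25.1 and 35.8 FPKM in petal and was not called (limma adjusted p = 0.106). On this corolla side its adjusted p was 0.0373 to 0.217 with limma over the 9 settings, and 0.00288 with edgeR on counts. ECERIFERUM 3 (c109443.graph_c1), the partner of ECERIFERUM 1, differed least of the called genes, with 121 and 121 FPKM in corolla, against 224 and 265 FPKM in petal (log2 difference -1.01 ± 0.18 SE, limma adjusted p = 0.0309; 0.00325 to 0.0867 over the 9 settings).

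Further cuticle genes were higher in petal. Some were chosen after their values were seen. The acyltransferase DCR (c102914.graph_c0), needed for cutin in Arabidopsis, had 4.09 and 4.20 FPKM in corolla, against 94.04 and 82.7 FPKM in petal (log2 difference -4.12 ± 0.18 SE, limma adjusted p = 0.000398). Cytochrome P450 86A2 (c99973.graph_c0), a fatty acid hydroxylase of cutin synthesis, had 0.85 and 0.46 FPKM in corolla, against 6.32 and 5.48 FPKM in petal (log2 difference -2.07 ± 0.30 SE, limma adjusted p = 0.0177). CYP77A2 (c104103.graph_c0), a further P450, had 1.91 and 1.23 FPKM in corolla, against 10.9 and 15.9 FPKM in petal (log2 difference -2.48 ± 0.29 SE, limma adjusted p = 0.0101). A GDSL esterase/lipase (c104312.graph_c0) had 4.12 and 3.85 FPKM in corolla, against 90.4 and 82.8 FPKM in petal (log2 difference -4.13 ± 0.18 SE, limma adjusted p = 0.000398). The GPI-anchored lipid transfer protein 1 (c77197.graph_c0), which takes part in wax export in Arabidopsis, had 1.73 and 1.42 FPKM in corolla, against 32.4 and 28.2 FPKM in petal (log2 difference -3.60 ± 0.22 SE, limma adjusted p = 0.00131). The gene c105508.graph_c1, matched to the pEARLI1 lipid transfer protein, had 36.8 and 7.24 FPKM in corolla, against 267 and 311 FPKM in petal, with corolla repeats that differed widely (log2 difference -4.04 ± 0.64 SE, limma adjusted p = 0.0229; 0.00343 to 0.0615 over the 9 settings).

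Some lipid genes were on the corolla side. Alkane hydroxylase MAH1 (c104614.graph_c3), which in Arabidopsis oxidises wax alkanes to alcohols and ketones, had 1285 and 1490.2 FPKM in corolla, against 258 and 438 FPKM in petal (log2 difference 2.04 ± 0.30 SE, limma adjusted p = 0.0185). A probable non-specific lipid-transfer protein (c94539.graph_c0) had 126 and 158 FPKM in corolla, against 23.8 and 33.9 FPKM in petal (log2 difference 2.27 ± 0.23 SE, limma adjusted p = 0.00621). Both genes were thus more abundant in corolla, at the same time as the alkane-forming ECERIFERUM 1 genes called above were more abundant in petal.

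**Figure D4:**
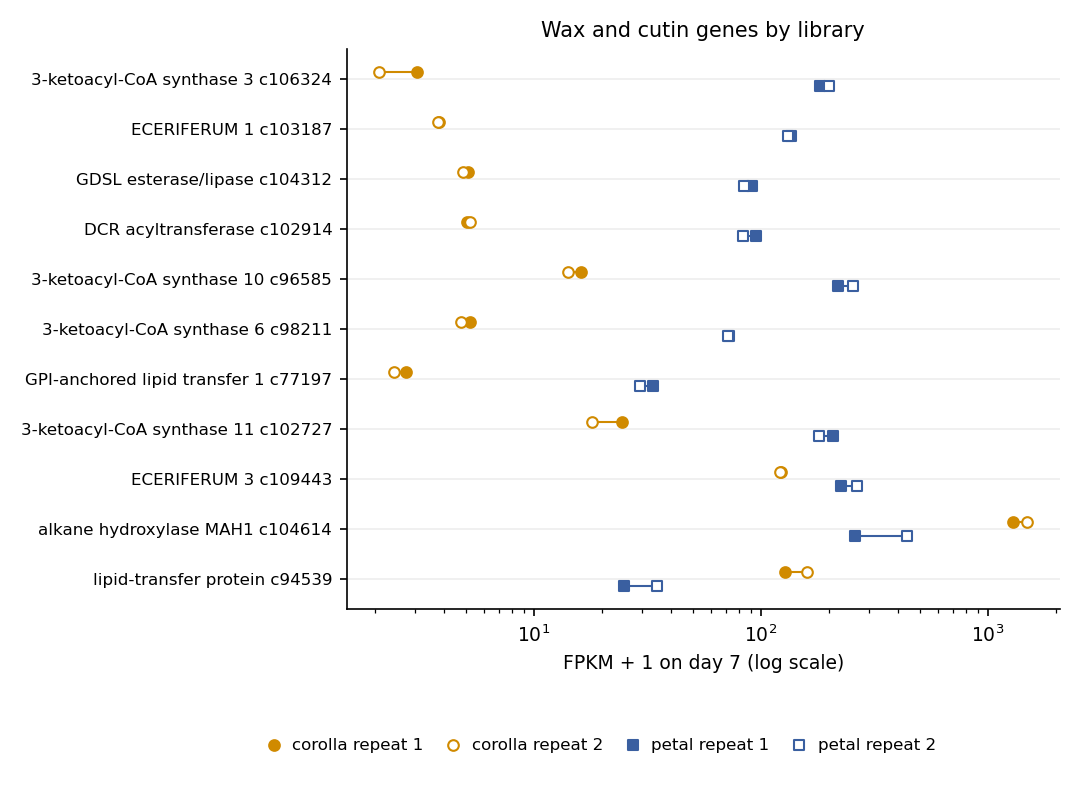
FPKM + 1 on a logarithmic axis for 11 wax and cutin genes in each day 7 library; corolla repeats are circles and petal repeats squares, filled for repeat 1 and open for repeat 2. In the upper 9 genes both petal libraries lie right of both corolla libraries, as for ECERIFERUM 1 at 2.76 to 2.80 FPKM in corolla and 130.4 to 135 FPKM in petal, and in the lower pair the order is the opposite.

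Cell wall genes were also called more often on the petal side. Of 57 tested, 5 were higher in corolla and 16 in petal, with a median of -0.19. Over the 9 settings the counts were 2 to 11 and 7 to 18. Expansin-A1 (c95697.graph_c0), which loosens the wall, had 12.9 and 25.1 FPKM in corolla, against 255 and 364 FPKM in petal (log2 difference -4.01 ± 0.33 SE, limma adjusted p = 0.00357). Pectate lyase 15 (c101521.graph_c0), which cuts pectin, had 19.0 and 18.9 FPKM in corolla, against 139 and 179 FPKM in petal (log2 difference -2.99 ± 0.19 SE, limma adjusted p = 0.0014), and pectate lyase 8 (c106683.graph_c1) had 137 and 128 FPKM in corolla, against 837 and 916 FPKM in petal (log2 difference -2.72 ± 0.18 SE, limma adjusted p = 0.00182). A xyloglucan endotransglucosylase/hydrolase (c98673.graph_c0), which cuts and rejoins xyloglucan, had 139 and 39.9 FPKM in corolla, against 688 and 439 FPKM in petal, with corolla repeats far apart. Its call ended under 6 of the 9 settings (limma adjusted p = 0.0413; 0.00831 to 0.0881). A polygalacturonase inhibitor (c105289.graph_c1), of a family that blocks fungal pectin-cutting enzymes, had 179.8 and 223 FPKM in corolla, against 911 and 1493 FPKM in petal (log2 difference -2.54 ± 0.29 SE, limma adjusted p = 0.00914).

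Fasciclin-like arabinogalactan proteins, glycoproteins of the wall and cell surface, gave 3 of 8 higher in corolla and 1 in petal, a subset set apart after its values had been seen (2 to 3 and 0 to 1 over the 9 settings). Protein 2 (c109269.graph_c1) had 248 and 253 FPKM in corolla, against 60.7 and 55.02 FPKM in petal (log2 difference 2.10 ± 0.16 SE, limma adjusted p = 0.00301). Protein 17 (c102437.graph_c0) had 150.5 and 137 FPKM in corolla, against 43.2 and 50.0 FPKM in petal (log2 difference 1.61 ± 0.17 SE, limma adjusted p = 0.00742). Protein 6 (c95103.graph_c0) had 61.3 and 42.97 FPKM in corolla, against 21.6 and 16.4 FPKM in petal (log2 difference 1.40 ± 0.24 SE, limma adjusted p = 0.0289; 0.0118 to 0.077 over the 9 settings), and protein 8 (c96563.graph_c0), on the petal side, had 22.4 and 20.02 FPKM in corolla, against 48.4 and 56.7 FPKM in petal (log2 difference -1.27 ± 0.18 SE, limma adjusted p = 0.0164; 0.00222 to 0.0596 over the same).

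Transport genes gave 1 of 25 tested higher in corolla and 4 in petal (median -0.55; 1 to 4 and 3 to 7 over the 9 settings). Aquaporins, the water channels of membranes, were on both sides. The vacuolar aquaporin TIP1-1 (c97947.graph_c0) had 0.8 and 0.93 FPKM in corolla, against 10.6 and 19.7 FPKM in petal (log2 difference -3.06 ± 0.34 SE, limma adjusted p = 0.00811), and PIP1-4 (c97547.graph_c0), of the plasma membrane, had 1.93 and 0.96 FPKM in corolla, against 14.6 and 12.7 FPKM in petal (log2 difference -2.61 ± 0.29 SE, limma adjusted p = 0.00821). PIP2-8 (c96314.graph_c0), also of the plasma membrane, was higher in corolla, with 83.6 and 69.4 FPKM in corolla, against 25.1 and 18.97 FPKM in petal (log2 difference 1.76 ± 0.21 SE, limma adjusted p = 0.0101). Sugar transport protein 13 (c101676.graph_c0), a hexose importer, had 7.86 and 5.82 FPKM in corolla, against 28.8 and 36.5 FPKM in petal (log2 difference -2.11 ± 0.23 SE, limma adjusted p = 0.00785).

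Most called genes of plastid function were higher in corolla. In the photosynthesis and chlorophyll list 16 of 37 tested genes were higher in corolla and 1 in petal, with a median of 1.22. The list's summed level was 1683 and 1413 FPKM in corolla and 651 and 618 FPKM in petal. A protochlorophyllide reductase gene (c91455.graph_c0), whose enzyme makes chlorophyllide in light, had 50.6 and 41.7 FPKM in corolla, against 1.66 and 1.79 FPKM in petal (log2 difference 4.11 ± 0.21 SE, limma adjusted p = 0.000788). Oxygen-evolving enhancer protein 2 (c84515.graph_c0), of photosystem II, had 196 and 167 FPKM in corolla, against 18.99 and 16.4 FPKM in petal (log2 difference 3.28 ± 0.18 SE, limma adjusted p = 0.00093). The photoprotective PsbS protein of photosystem II (c100941.graph_c2) had 161 and 128 FPKM in corolla, against 13.9 and 17.3 FPKM in petal (log2 difference 3.13 ± 0.20 SE, limma adjusted p = 0.00149). The small subunit of Rubisco (c89121.graph_c0), the enzyme that fixes carbon dioxide, had 237 and 183 FPKM in corolla, against 24.6 and 32.4 FPKM in petal (log2 difference 2.84 ± 0.22 SE, limma adjusted p = 0.00286). A further subunit of photosystem II, PsbR (c107432.graph_c0), had 281 and 264 FPKM in corolla, against 60.1 and 63.5 FPKM in petal (log2 difference 2.12 ± 0.16 SE, limma adjusted p = 0.00287).

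The exception was chlorophyll a-b binding protein 8 (c96066.graph_c0), an antenna protein of photosystem I, with 33.04 and 22.5 FPKM in corolla, against 181 and 175 FPKM in petal (log2 difference -2.66 ± 0.22 SE, limma adjusted p = 0.00343). Early light-induced protein 1 (c108016.graph_c0), a stress-related member of the same protein family that was not in the list, was more abundant still and also higher in petal, with 1083 and 988 FPKM in corolla, against 3320.0 and 3750.2 FPKM in petal (log2 difference -1.77 ± 0.27 SE, limma adjusted p = 0.0201; 0.00157 to 0.0512 over the 9 settings). Plastid ribosomal proteins, which translate the plastid's own messages, gave 20 of 34 tested higher in corolla and 0 in petal, with a median of 1.04 (8 to 27 and 0 to 1 over the 9 settings). Protein L18 of the large plastid subunit (c93180.graph_c0) had 37.5 and 39.5 FPKM in corolla, against 5.29 and 6.20 FPKM in petal (log2 difference 2.55 ± 0.19 SE, limma adjusted p = 0.00241), and protein L24 (c103114.graph_c1) had 30.1 and 29.8 FPKM in corolla, against 6.54 and 6.46 FPKM in petal (log2 difference 2.05 ± 0.18 SE, limma adjusted p = 0.00438). Cytosolic ribosomal proteins gave 0 calls among 29 with limma, 0 at an unadjusted p under 0.05 and 0 with edgeR among the 3 with counts. Their median was 0.46, and 8 of the 29 had corolla values above both petal values and 0 the reverse. Over all tested genes 20.3% had both corolla values above both petal values, and 31.0% the reverse. In the same terms 29 of the 34 plastid ribosomal genes and 25 of the 37 photosynthesis genes had both corolla values on top. The shares are over all tested genes, whereas the lists hold named genes only, which were called more often (20.7% against 5.07%).

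**Figure D5:**
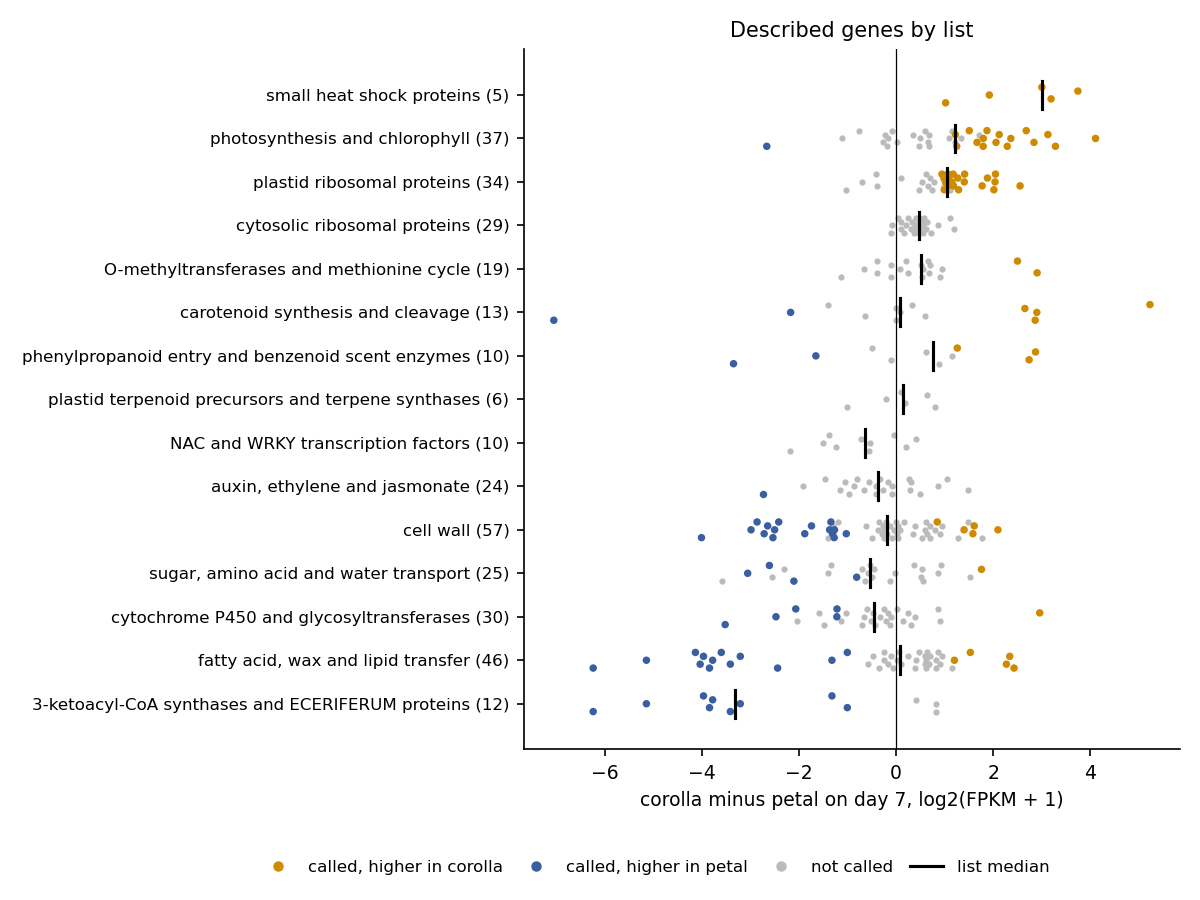
Difference of corolla minus petal on the log2(FPKM + 1) scale on day 7 (horizontal axis) for the tested members of 15 lists, 1 point a gene, with the number tested in brackets and the list median as a black bar. Called genes of the photosynthesis and plastid ribosomal lists lie right of 0 with 1 exception, those of the 3-ketoacyl-CoA synthase and ECERIFERUM group lie left of 0, and the carotenoid list spreads to both sides.

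Heat shock proteins and chaperones, which keep other proteins folded, gave 9 of 25 tested higher in corolla and 0 in petal, with a median of 0.61 (5 to 10 and 0 to 1 over the 9 settings). All 5 small heat shock proteins, a subset set apart after its values had been seen, were among the 9 (2 to 5 over the 9 settings). The class I protein c89093.graph_c0 had 74.98 and 95.7 FPKM in corolla, against 6.22 and 4.67 FPKM in petal (log2 difference 3.74 ± 0.22 SE, limma adjusted p = 0.00117; 0.000213 to 0.0644 over the 9 settings). The plastid small heat shock proteins c100136.graph_c0 and c83643.graph_c0 had 345 and 297 FPKM in corolla, against 35.7 and 32.7 FPKM in petal, and 90.9 and 84.6 FPKM in corolla, against 10.3 and 9.81 FPKM in petal (3.19 ± 0.17 SE (adjusted p = 0.000926) and 3.00 ± 0.17 SE (adjusted p = 0.00102) with limma). Summed over the 5, levels were 561 and 519 FPKM in corolla, against 69.7 and 68.8 FPKM in petal. On day 1 the same sum split the repeats and not the tissues, at 69.5 and 254 FPKM in corolla and 44.3 and 251 FPKM in petal, so the sum differed more between repeats than between tissues there. A heat shock 70 kDa protein gene (c99060.graph_c1) had 10.9 and 13.3 FPKM in corolla, against 0.89 and 0.83 FPKM in petal (log2 difference 2.81 ± 0.26 SE, limma adjusted p = 0.00477).

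The following proteins of defence and stress belonged to no list. Genes matched to the same MLP-like protein, of the major latex protein family, were on opposite sides. c88947.graph_c0 had 361 and 389 FPKM in corolla, against 12.02 and 11.7 FPKM in petal (log2 difference 4.87 ± 0.16 SE, limma adjusted p = 0.000181). c95577.graph_c0 had 12.1 and 3.27 FPKM in corolla, against 319.9 and 256 FPKM in petal (log2 difference -5.27 ± 0.49 SE, limma adjusted p = 0.00503). Pathogenesis-related protein PR-4B (c103444.graph_c1), a chitin-binding defence protein, had 125 and 78.05 FPKM in corolla, against 2988 and 4528 FPKM in petal (log2 difference -5.20 ± 0.32 SE, limma adjusted p = 0.0014) and was one of the most abundant named genes of petal. A wound-induced protein (c111302.graph_c0) was listed at 0 in both corolla libraries, with 33.7 and 55.1 FPKM in petal (limma adjusted p = 0.000926). A thaumatin-like protein (c98760.graph_c0) was abundant in both tissues, with 2218 and 2186 FPKM in corolla, against 6065 and 8206 FPKM in petal (log2 difference -1.68 ± 0.34 SE, limma adjusted p = 0.0488; 0.00322 to 0.131 over the 9 settings), and a second (c109421.graph_c0) had 2967 and 3228 FPKM in corolla, against 6003 and 8113 FPKM in petal, without a call (limma adjusted p = 0.138).

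Of 12 proteinases and proteinase inhibitors 3 were higher in corolla and 0 in petal (2 to 4 and 0 to 1 over the 9 settings). A trypsin inhibitor (c96639.graph_c0), of proteins that protect tissue from digestive enzymes, had 78.9 and 113 FPKM in corolla, against 28.3 and 28.3 FPKM in petal (log2 difference 1.71 ± 0.21 SE, limma adjusted p = 0.0119). Snakin-2 (c96515.graph_c0), an antimicrobial peptide of potato, had 332 and 323 FPKM in corolla, against 65.1 and 77.3 FPKM in petal (log2 difference 2.19 ± 0.18 SE, limma adjusted p = 0.00325). The secreted signal peptide RALF-like 36 (c111252.graph_c0) had 101 and 124 FPKM in corolla, against 0.62 and 2.32 FPKM in petal (log2 difference 5.61 ± 0.35 SE, limma adjusted p = 0.0014). A pair of DRT100-like genes, c105267.graph_c1 and c105267.graph_c0, had 6.49 and 5.79 FPKM in corolla, against 154 and 164 FPKM in petal, and 3.12 and 6.46 FPKM in corolla, against 92.4 and 98.8 FPKM in petal (-4.49 ± 0.17 SE (adjusted p = 0.000269) and -4.12 ± 0.30 SE (adjusted p = 0.00225) with limma). They share an assembly component, so their reads may have been divided between them. Redox enzymes gave 1 of 19 higher in corolla and 2 in petal (0 to 4 and 1 to 6 over the 9 settings). The plastid peroxiredoxin BAS1 (c101823.graph_c1), which removes peroxide, had 221 and 217 FPKM in corolla, against 73.8 and 101 FPKM in petal (log2 difference 1.33 ± 0.21 SE, limma adjusted p = 0.0215; 0.00141 to 0.0675 over the 9 settings), and peroxidase 17 (c88869.graph_c0) had 1.25 and 0.85 FPKM in corolla, against 10.2 and 8.72 FPKM in petal (log2 difference -2.35 ± 0.27 SE, limma adjusted p = 0.00933). A metallothionein-like gene (c89381.graph_c0), of small metal-binding proteins, was the most abundant named gene of corolla and varied between repeats, with 7025 and 5457 FPKM in corolla, against 4905 and 2299.8 FPKM in petal (limma adjusted p = 0.356).

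Regulators differed in few genes. Floral organ identity depends on MADS-box factors. Of 4 tested 1 was called: the match to rice MADS2 (c106110.graph_c1) had 165 and 173 FPKM in corolla, against 41.6 and 53.96 FPKM in petal (log2 difference 1.81 ± 0.19 SE, limma adjusted p = 0.00695). The match to MADS16 (c95429.graph_c0), its partner in rice, had 7.47 and 4.36 FPKM in corolla, against 3.06 and 5.37 FPKM in petal, and the AGL8 homolog (c96931.graph_c0) had 53.7 and 44.2 FPKM in corolla, against 37.1 and 43.4 FPKM in petal, both without a call (limma adjusted p = 0.589 and 0.479). Of 5 MYB factors 0 were higher in corolla and 1 in petal (0 and 1 to 2 over the 9 settings). The Myb-related protein 306 gene (c103387.graph_c2) had 0.8 and 0.54 FPKM in corolla, against 6.32 and 8.03 FPKM in petal (log2 difference -2.29 ± 0.29 SE, limma adjusted p = 0.0121). Myb-related protein 305 (c105121.graph_c1), which in snapdragon acts on phenylpropanoid genes of flowers, had 21.1 and 40.8 FPKM in corolla, against 22.2 and 28.2 FPKM in petal, with overlapping groups (limma adjusted p = 0.772).

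NAC and WRKY factors gave 0 calls among 10 with limma, with 7 at an unadjusted p under 0.05 and up to 4 calls higher in petal over the 9 settings. Further, 7 of the 10 had both petal values above both corolla values, as had 31.0% of all tested genes, named or not. The NAC100 gene (c104534.graph_c0) had 49.96 and 23.6 FPKM in corolla, against 104 and 65.6 FPKM in petal (limma adjusted p = 0.138) and the NAC48 gene (c97748.graph_c0) 31.7 and 6.24 FPKM in corolla, against 75.5 and 62.2 FPKM in petal (limma adjusted p = 0.123). In each tissue repeat 1 was the higher one in both genes. Over the 9 settings the adjusted p was 0.079 to 0.276 for NAC100 and 0.0491 to 0.252 for NAC48. In a general list of 53 transcription factors 3 were higher in corolla and 4 in petal (3 to 4 and 1 to 10 over the 9 settings). It holds 18 genes of the MADS-box, MYB, NAC and WRKY and hormone lists, of which only MADS2 was called. Its other 35 gave 2 higher in corolla and 4 in petal. TCP8 (c104385.graph_c2) had 18.2 and 17.9 FPKM in corolla, against 5.68 and 5.10 FPKM in petal (log2 difference 1.58 ± 0.20 SE, limma adjusted p = 0.0119). IBH1 (c78680.graph_c0), a growth repressor of the brassinosteroid pathway in Arabidopsis, had 18.7 and 25.6 FPKM in corolla, against 6.27 and 6.72 FPKM in petal (log2 difference 1.61 ± 0.22 SE, limma adjusted p = 0.0158). PIF3 (c100900.graph_c0), a partner of the light receptor phytochrome, had 59.5 and 44.6 FPKM in corolla, against 108 and 106 FPKM in petal (log2 difference -1.04 ± 0.20 SE, limma adjusted p = 0.0375; 0.00408 to 0.0983 over the 9 settings). The homeobox genes HOX16 (c111607.graph_c0) and BEL1 (c100589.graph_c0) had 5.85 and 4.30 FPKM in corolla, against 22.1 and 15.99 FPKM in petal, and 4.40 and 5.03 FPKM in corolla, against 11.3 and 15.5 FPKM in petal (-1.72 ± 0.25 SE (adjusted p = 0.0187) and -1.32 ± 0.24 SE (adjusted p = 0.0346) with limma; for BEL1 0.0064 to 0.0717 over the 9 settings). Histone deacetylase 15 (c100155.graph_c0), which removes acetyl groups from chromatin, had 52.02 and 54.7 FPKM in corolla, against 3.96 and 4.41 FPKM in petal (log2 difference 3.39 ± 0.18 SE, limma adjusted p = 0.000926).

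Hormone genes gave few calls in the auxin, ethylene and jasmonate list, and more in the abscisic acid and gibberellin list. In the abscisic acid and gibberellin list 1 of 13 was higher in corolla, the snakin-2 gene above, whose family responds to gibberellin, and 3 in petal (median -0.97; 1 to 2 and 1 to 3 over the 9 settings). Gibberellin-regulated protein 6 (c99390.graph_c0) had 5.56 and 4.87 FPKM in corolla, against 25.6 and 35.9 FPKM in petal (log2 difference -2.34 ± 0.23 SE, limma adjusted p = 0.00591). Abscisic stress-ripening protein 1 (c91020.graph_c0) had 206 and 128 FPKM in corolla, against 438 and 602 FPKM in petal (log2 difference -1.65 ± 0.29 SE, limma adjusted p = 0.03; 0.0121 to 0.0739 over the 9 settings). A gibberellin 3-beta-dioxygenase (c92476.graph_c0), which makes active gibberellin, was weak, with 0.13 and 0.18 FPKM in corolla, against 2.73 and 5.63 FPKM in petal (log2 difference -2.11 ± 0.39 SE, limma adjusted p = 0.0372; 0.00698 to 0.0845 over the 8 settings that kept the gene). Among auxin, ethylene and jasmonate genes 0 of 24 were higher in corolla and 1 in petal (median -0.38; 0 to 2 and 1 to 4 over the 9 settings), the auxin-induced 5NG4 gene (c92680.graph_c0) with 2.50 and 1.35 FPKM in corolla, against 18.4 and 18.2 FPKM in petal (log2 difference -2.75 ± 0.27 SE, limma adjusted p = 0.00577).

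The most different genes included some without a usable name. c98098.graph_c1, matched only to an uncharacterised palm protein, had 502 and 391 FPKM in corolla, against 4.80 and 5.12 FPKM in petal (log2 difference 6.22 ± 0.19 SE, limma adjusted p = 0.000181), the largest difference towards corolla of any described gene. c110924.graph_c1, matched to an uncharacterised bamboo protein, was the most abundant described gene of petal, with 576 and 567 FPKM in corolla, against 6256 and 9347 FPKM in petal (log2 difference -3.74 ± 0.31 SE, limma adjusted p = 0.00365). Other genes had no description, which does not mean that a search found no match. Of these, c98231.graph_c0 had 50.4 and 47.5 FPKM in corolla and was listed at 0 in both petal libraries (limma adjusted p = 0.000301). The gene c27624.graph_c0 had 20.4 and 27.4 FPKM in corolla, against 0.37 and 0.55 FPKM in petal (log2 difference 4.08 ± 0.26 SE, limma adjusted p = 0.00149). On the other side c107735.graph_c0 had 14.2 and 8.60 FPKM in corolla, against 737 and 966 FPKM in petal (log2 difference -6.13 ± 0.27 SE, limma adjusted p = 0.000398), and c100805.graph_c0 had 0.72 and 0.79 FPKM in corolla, against 93.6 and 104 FPKM in petal (log2 difference -5.83 ± 0.19 SE, limma adjusted p = 0.000181). Few transcripts were present in only 1 tissue at an appreciable level. Genes with at least 10 FPKM in both libraries of a tissue and less than 1 FPKM in both of the other numbered 5 in corolla and 7 in petal. Of the genes listed in 1 table alone, 90 of 13914 reached 1 FPKM in both corolla libraries and 153 of 16606 in both petal libraries, at no more than 9.36 FPKM and 5.84 FPKM in the lower library of the pair.

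Markers of other flower parts were looked for in the same libraries. The pollen and anther list had 4 tested genes, 2 of them higher in corolla (0 to 2 over the 9 settings), and summed to 229 and 136 FPKM in corolla and 53.0 and 45.7 FPKM in petal. Both calls were matches to the pollen-specific protein C13 of maize. c95015.graph_c0 had 127 and 69.6 FPKM in corolla, against 25.2 and 20.01 FPKM in petal (log2 difference 2.02 ± 0.30 SE, limma adjusted p = 0.0194; 0.0069 to 0.0596 over the 9 settings), and c32095.graph_c0 had 99.5 and 63.8 FPKM in corolla, against 23.6 and 22.3 FPKM in petal (log2 difference 1.75 ± 0.24 SE, limma adjusted p = 0.0153; 0.00528 to 0.0528 over the 9). No gene of the stigma, style and ovary list was among the described ones, so that part could not be looked at. Transcripts whose best match lay outside land plants (15 tested) summed to 46.8 and 18.1 FPKM in corolla and 12.8 and 33.1 FPKM in petal, and 0 of them were called with limma, with 0 at an unadjusted p under 0.05. On day 1 the same 15 summed to 0 and 0 FPKM in corolla and 0 and 0.11 FPKM in petal, and 14 were listed at 0 throughout. Such genes were described only through a call between the days, which favours a gap of this kind. Whether other flower parts or organisms in the samples took part in any difference of tissue or day was not tested.

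The day 1 libraries, which share no library with day 7, gave the same comparison in younger flowers. On day 1 corolla and petal differed in 4186 of the same genes (18.1%), 1809 higher in corolla (7.80%) and 2377 higher in petal (10.3%). Of the 509 genes higher in corolla on day 7, 323 (63.5%) were called in that direction on day 1 and 4 in the other. Of the 667 higher in petal, 458 (68.7%) were called in that direction and 2 in the other. Seen from day 1, 17.9% of its corolla calls and 19.3% of its petal calls were called again on day 7. Across genes the differences of the days correlated at r = 0.651, a description over genes that are not independent. The photosynthesis list gave 32 of 37 higher in corolla on day 1 and 1 in petal, and the plastid ribosomal list 32 of 34 and 1. The cell wall list gave 8 and 27 of 57, and the heat shock list 5 and 2 of 25.

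Whether a tissue difference changed between the days was tested as the interaction over all 8 libraries. It passed for 164 of 23185 genes (0.707%), 68 positive (0.293%) and 96 negative (0.414%), and leaving out 1 library at a time gave 8 to 213. Without corolla day 1 repeat 1 there were 8, and without petal day 1 repeat 1, 18. The lists hold only genes the authors had called between the days, often in 1 tissue alone. This held for 24 of the 37 photosynthesis genes and 11 of the 12 3-ketoacyl-CoA synthase and ECERIFERUM genes. Such a choice can favour the interaction, so list counts below cannot be set against the 0.707% of all tested genes. Several wax genes were further to the petal side on day 7 than on day 1. For ECERIFERUM 1 (c103187.graph_c0) the difference was -5.14 ± 0.17 SE on day 7 and -1.94 ± 0.08 SE on day 1 (limma interaction adjusted p = 0.000678). 3-ketoacyl-CoA synthase 11 (c102727.graph_c0) was at -3.21 ± 0.21 SE on day 7 and -0.42 ± 0.17 SE on day 1 (limma interaction adjusted p = 0.00844). Of the 12 genes of that group 7 passed the interaction, 1 of them positive and 6 negative, and the sum of the 12 in corolla, 319 and 296 FPKM on day 7, had been 2126 and 1874 FPKM on day 1. In petal it was 1289 and 1403 FPKM on day 7, after 2342 and 2154 FPKM on day 1.

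In the photosynthesis list the interaction passed for 8 of 37 genes, all negative, as for protochlorophyllide reductase (c91455.graph_c0), at 4.11 ± 0.21 SE on day 7 and 5.30 ± 0.06 SE on day 1 (limma interaction adjusted p = 0.0433). Carotenoid differences were smaller on day 7 than on day 1 in 4 genes. Phytoene synthase (c101402.graph_c0) was at 5.23 ± 0.22 SE on day 7 and 6.98 ± 0.18 SE on day 1 (limma interaction adjusted p = 0.0397), and the cleavage dioxygenase c104683.graph_c0 at -2.17 ± 0.20 SE and -4.90 ± 0.31 SE (limma interaction adjusted p = 0.0205). Norcoclaurine synthase (c106745.graph_c0) was also less different by day 7, at 1.53 ± 0.16 SE after 3.85 ± 0.11 SE (limma interaction adjusted p = 0.00231). For phenylalanine ammonia-lyase the tissue difference was larger on day 7 than on day 1: c93919.graph_c0 was at 2.74 ± 0.25 SE and 0.56 ± 0.24 SE (limma interaction adjusted p = 0.0319), and c103612.graph_c0 at -1.65 ± 0.22 SE and -0.05 ± 0.12 SE (limma interaction adjusted p = 0.0397). A 1-deoxy-D-xylulose-5-phosphate synthase gene (c107914.graph_c0) showed the reverse, at 0.10 ± 0.16 SE on day 7 and 2.37 ± 0.07 SE on day 1 (limma interaction adjusted p = 0.00206). The trypsin inhibitor (c96639.graph_c0) changed sides, at 1.71 ± 0.21 SE on day 7 and -2.02 ± 0.14 SE on day 1 (limma interaction adjusted p = 0.00206). Its day 1 levels were 77.3 and 87.6 FPKM in corolla, against 300.2 and 376 FPKM in petal.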

How the data were processed

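Gene levels were measured by RNA sequencing in 2 libraries of corolla and 2 of petal on day 7, with 2 of each on day 1 used for the contrast of the days. Reads were assembled de novo per the series' design text, and Bowtie and RSEM are named, without version or role, per the submitters' processing notes. Per the file headers and values, the authors deposited for each tissue FPKM of all genes, rounded to 2 decimals, with an authors' FDR (an adjusted p-value) and log2 fold change of day 7 against day 1, which are not used here except as the direction of a gene's call between the days. Read counts are deposited for the genes the authors called only, per the file headers, so total depth is not known, and relative depth was read from counts over FPKM of genes with at least 100 counts in every library. The 2 tables were joined by gene identifier, and all sample columns could be assigned.

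Genes in both tables with at least 1 FPKM in 2 of the 4 day 7 libraries were tested on log2(FPKM + 1) in limma 3.58.1 (R 4.3.3), two-sided, with the prior variance allowed to follow the mean level and with Benjamini-Hochberg adjustment at 0.05 over all 23185 genes. The day 1 comparison and the interaction of tissue and day used the same genes. The fits were first run on simulated data with known changes, which does not mean that small differences could be called. Among the genes called on day 7 the smallest absolute log2 difference was 0.807 and the median 1.73. A gene without a call may therefore still differ between the tissues. edgeR 4.0.16 was run as an alternative on the counts of genes called in both tables. A gene listed at 0 may be a failed estimate. Python 3.11.15, pandas 2.3.3, numpy 2.4.6 and matplotlib 3.10.9 served for tables and plots.

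Lists were drawn by matching words in the Swiss-Prot name, or the Nr name where there was none, of the described genes. The genes and lists were chosen with earlier results of these data known, and the 3-ketoacyl-CoA synthase, small heat shock and fasciclin groups, as well as the division of ribosomal proteins into plastid and cytosolic ones, were made after seeing values. Genes were named by rule: up to 3 in each direction of a list with the largest called difference, the 10 largest differences in each direction, the 5 most abundant of each tissue, at most 2 unnamed genes in each direction, and a set of scent, colour and regulator genes. Of the 119 genes named, 21 fall outside that rule and were chosen after their values were seen: c96068, c102481, c91437, c104614, c98211, c102727, c109443, c102914, c77197, c105508, c89121, c107432, c108016, c105289, c95429, c93840, c102117, c78955, c96931, c99060 and c100302.

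By the authors' deposited table, genes described through a rise in petal by day 7 alone (185 tested) were called higher in corolla in 4.32% and higher in petal in 25.4% of cases, whereas those described through a fall in corolla alone (590) were so in 10.3% and 7.63%, so the descriptions favour genes by direction.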

Additional observations from a re-analysis of the deposited data

Results flagged for a closer look

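Of the 119 genes named above, 22 had a tissue difference that itself differed between the days. This was the interaction term of limma over all 8 libraries (adjusted p below 0.05), which 0.707% of all tested genes passed. The named genes were mostly chosen for large day 7 differences among genes called between the days, so the shares are not comparable. The interaction count also depended strongly on single libraries, as given below. Values are the corolla minus petal difference on day 7 less that on day 1, on the log2 scale, and a negative value means a shift towards petal. Among wax and cutin genes it was -3.20 ± 0.17 SE for ECERIFERUM 1 (c103187.graph_c0), -1.98 ± 0.30 SE for a second ECERIFERUM 1 (c102117.graph_c4), -1.26 ± 0.19 SE for ECERIFERUM 3 (c109443.graph_c1) and -2.82 ± 0.32 SE for the acyltransferase DCR (c102914.graph_c0). For 3-ketoacyl-CoA synthases it was -2.06 ± 0.20 SE (c96585.graph_c0), -1.14 ± 0.19 SE (c98211.graph_c0) and -2.79 ± 0.27 SE (c102727.graph_c0). The GDSL lipase (c104312.graph_c0) gave -1.65 ± 0.17 SE and cytochrome P450 86A2 (c99973.graph_c0) gave -2.89 ± 0.38 SE.

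Among colour and plastid genes, phytoene synthase (c101402.graph_c0) gave -1.75 ± 0.28 SE, D27 (c103044.graph_c0) -1.60 ± 0.27 SE and protochlorophyllide reductase (c91455.graph_c0) -1.19 ± 0.19 SE. The cleavage dioxygenases gave 1.50 ± 0.24 SE (c109231.graph_c0) and 2.73 ± 0.35 SE (c104683.graph_c0). Phenylalanine ammonia-lyase genes were on opposite sides, at -1.61 ± 0.26 SE (c103612.graph_c0) and 2.18 ± 0.32 SE (c93919.graph_c0). The gene c107914.graph_c0 of 1-deoxy-D-xylulose-5-phosphate synthase gave -2.26 ± 0.16 SE, isoleucine N-monooxygenase 1 (c95271.graph_c2) -2.73 ± 0.34 SE and norcoclaurine synthase (c106745.graph_c0) -2.32 ± 0.17 SE. The auxin-induced 5NG4 gene (c92680.graph_c0) gave -2.32 ± 0.33 SE, the isoflavone reductase-like gene (c78614.graph_c0) 3.02 ± 0.41 SE and the trypsin inhibitor (c96639.graph_c0) 3.72 ± 0.26 SE.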

How the results depend on the processing

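The count of 1176 genes on day 7 (509 and 667 higher in corolla and in petal) was 625 (285 and 340) with no filter on low FPKM, 641 (302 and 339) with no trend in the prior, 2962 (1159 and 1803) with all 8 libraries in 1 fit, and 3651 (1314 and 2337) with the repeat number as a replicate block. Leaving out 1 library gave 0 to 365 genes (0 to 86 and 0 to 279). The pseudocounts 0.1 and 5, the 5 FPKM filter, TMM and median-of-ratios scaling, and adding genes of either table stayed within 1.5 times. Whether the repeat numbers pair the samples is not given by the labels, and there are only 2 pairs. Deviations of same-numbered repeats correlated at 0.341 across genes on day 7 and at 0.182 on day 1. Above a mean level of 5 FPKM the day 7 value was 0.623 (12973 genes). A 4-fold gap put repeat 1 on top in both tissues in 83 genes and repeat 2 in 11, and ran opposite ways in 2. With the replicate block 5 of the 10 NAC and WRKY genes were higher in petal, NAC100 (c104534.graph_c0) and NAC48 (c97748.graph_c0) among them. The interaction's 164 (68 and 96) became 445 (206 and 239) with the replicate block and 258 (112 and 146) with TMM. Leaving out 1 library gave 8 to 213 (3 to 114 and 5 to 114).

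Of 99 called genes named above, 79 stayed called in the 10 alternatives that kept all 4 libraries. None of the 99 changed direction in any alternative, left-out libraries and edgeR included. This was largely fixed in advance. The corolla and petal values of each did not overlap, so leaving out a library could not turn the direction. Most other settings change the variance or the gene set and leave the difference as it was. Of the 20 named genes not called, 1 changed sign with all 4 libraries and 4 with a library left out. edgeR on 470 genes with counts in both tables called 106 higher in corolla and 126 higher in petal, including all 110 that limma called among them. It also called 5 named genes that limma did not: c104304, c106934, c48302, c100302 and c109421. The causes were not tested. Total depth is not known, so what it limits cannot be given.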
